A study of Drosophila melanogaster with 2 samples.

Results

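The genes described here encode the translation initiation and elongation factors of Drosophila melanogaster. They are the protein-coding genes of the nuclear chromosomes 2L, 2R, 3L, 3R, 4 and X whose symbol starts with eEF or eIF, 52 of 13945 such genes in the Ensembl annotation. The data are chromatin immunoprecipitation with sequencing (ChIP-seq) peak lists for TFAM in whole embryos of both sexes, aged 0 to 16 h, from a transgenic line that stably carries TFAM with GFP at its C terminus. There were 2 samples of this single group, replicates 3 and 4 from separate biosamples, and no sample of an untagged line or a control was analysed here. According to the descriptions of the samples the precipitation used anti-GFP, while the antibody entry reads TFAM. The sources used here do not give the promoter that drives the fusion gene. Whole embryos mix all cell types, so binding in more cells and more binding per cell cannot be told apart.

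TFAM is the HMG-box protein that coats and compacts mitochondrial DNA and is needed for its transcription. The factor genes are nuclear and act in the cytosol. During initiation, the eIF2 complex brings the initiator transfer RNA to the small ribosomal subunit, eIF3 and the small factors eIF1, eIF1A and eIF5 hold the scanning complex together, and the eIF4 proteins bind the mRNA cap and unwind the leader. The eEF proteins then deliver aminoacyl transfer RNAs and move the ribosome along the message.

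Each deposited list gives regions with a summit, a value on the open-ended scale of the authors' peak caller, and a q-value. The dm6 lists held 13374 nuclear regions for replicate 3, 13434 for replicate 4, and 9576 for both replicates called together (the pooled list). These lists mix peaks with background, and the q-value was 0.05 or less for 3174 of the regions of replicate 3, 1696 of replicate 4 and 2454 of the pooled list. A further list, cut by the authors at a limit on reproducibility (the thresholded list), had 1268 nuclear peaks. It contained exactly the pooled regions with a value of at least 92.4, each with its pooled value unchanged, so it is not a separate measurement. The lists hold no read counts and the depth is unknown. Values are comparable within a list only. A gene was counted when a summit lay within 500 bp of any of its annotated start sites. The embryo label could not be checked against marker genes, because peak lists carry no expression values.

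Of the 52 factor genes, 6 had a thresholded peak at a start site, namely eIF6, eEF1gamma, eIF4EHP, eIF1, eEF1alpha1 and eIF3c. This was 11.5% (95% Wilson interval 5.40 to 23.0), beside 5.35% of all protein-coding genes. In the pooled list 21 factor genes had a region, background included (40.4%, interval 28.2 to 53.9), beside 25.3% of all genes. In replicate 3 the number was 21 (40.4%) beside 29.0% of all genes, and in replicate 4 it was 26 (50%) beside 28.8%. Counting q-values up to 0.05 alone, 12 factor genes had a region in the pooled list (23.1%, interval 13.7 to 36.1, beside 9.47% of all genes). The number was 12 in replicate 3 (23.1% beside 11.9%) and 11 in replicate 4 (21.2%, interval 12.2 to 34.0, beside 6.81%). The intervals cover the counting of genes only, genes are not independent replicates, and no test of the list against other genes was made.

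Replicates 3 and 4 both listed a region at 15 factor genes (28.8% beside 18.8% of all genes), and at 8 of them both q-values were 0.05 or less (15.4%, interval 8.01 to 27.5, beside 5.63%). The regions of the 2 replicates need not be the same one, and at eIF4G2 they were not. No region of any dm6 list lay near a start site of 20 factor genes (38.5%, beside 60.7% of all genes). The number and the spacing of start sites set how much sequence was searched, because the windows of nearby start sites overlap. Factor genes had 1.48 annotated start sites on average and a mean search window of 1173 bp, and all protein-coding genes had 1.41 and 1251 bp. The 6 genes with a thresholded peak averaged 1.83 start sites and the 20 genes without any region 1.10. The part of this difference in the counts was not tested.

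**Figure D1:**
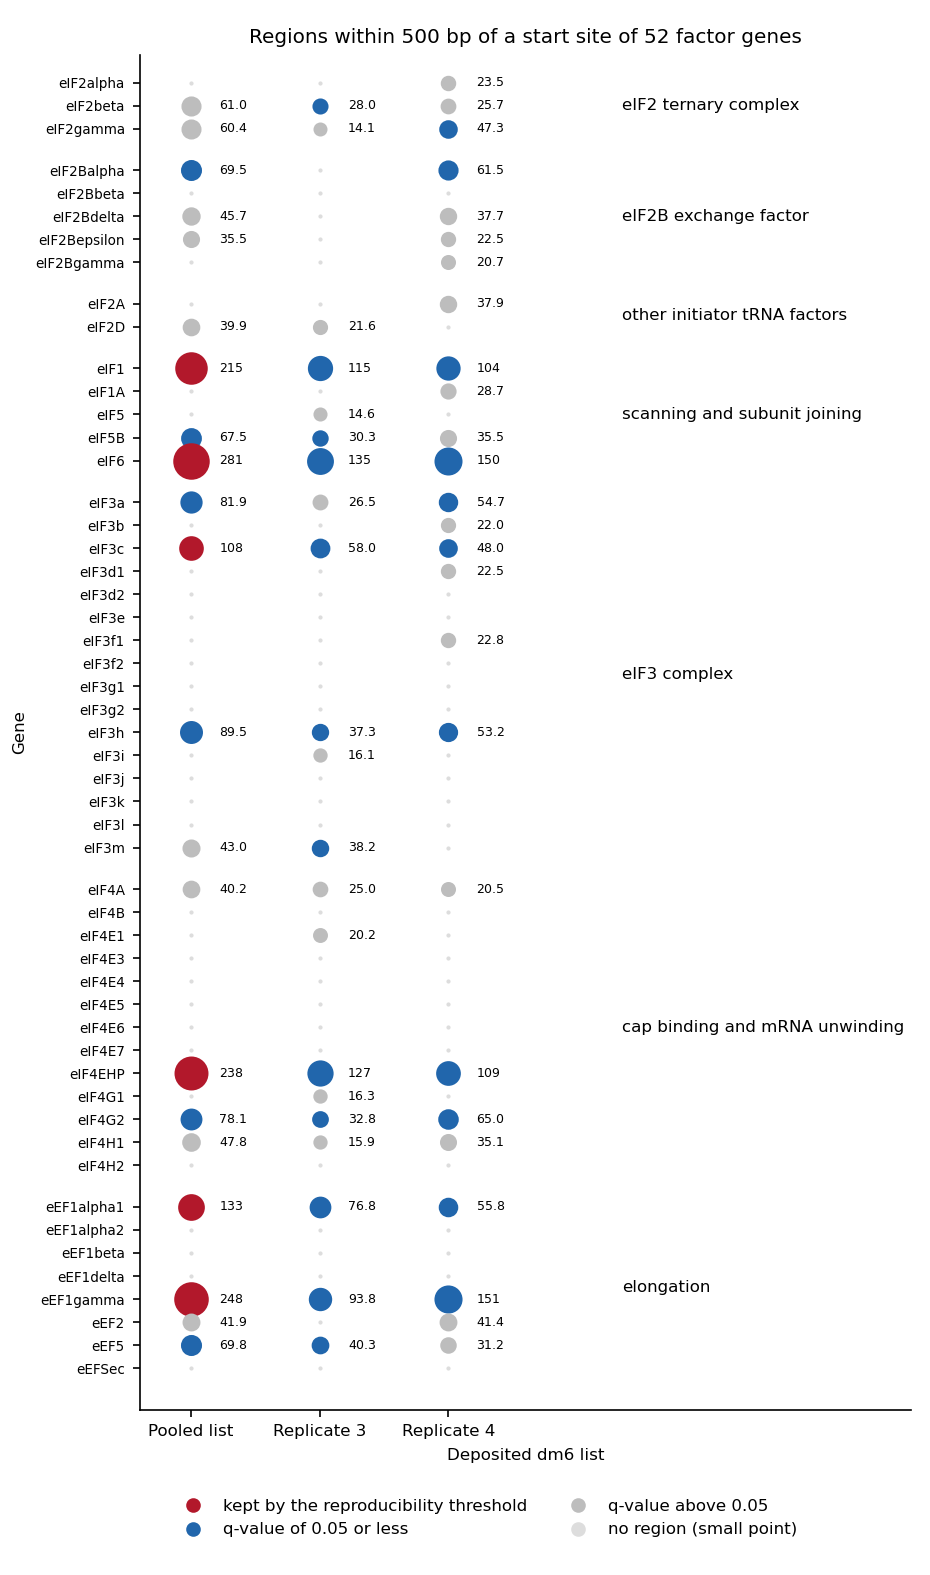
Value of the highest region within 500 bp of a start site for each of the 52 factor genes (rows, grouped by role) in the pooled list and in replicates 3 and 4 (columns). Point area grows with the value, printed beside it on each list's own scale, and the colour gives the class: 6 genes were kept by the reproducibility threshold and 20 have no region in any list.

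The factors of scanning and subunit joining all had a region in at least 1 list, background included, where 60.7% of all genes had none. The same held for the 3 genes of the eIF2 complex and for eIF2A and eIF2D. Of the 5 genes for scanning and subunit joining, 2 had a thresholded peak (beside 5.35% of all genes). eIF6, which binds the large ribosomal subunit and keeps it from joining the small subunit too early, had the highest value of all factor genes. Its peak (2R 23850334 to 23850437 in the pooled list) had a value of 135 in replicate 3, 150 in replicate 4 and 281 in the pooled list. There it ranked 97 among 9576 nuclear regions. The summit was placed 122 bp before the eIF6 start in the pooled list and in replicate 4, and 127 bp before it in replicate 3. It fell in an intron of ytr, the neighbouring gene on the same strand, and in an exon of the noncoding antisense gene asRNA:CR45928. The region was 104 bp wide in the pooled list, where the usual width was 390 bp. It was 103 bp wide in replicate 3 and 380 bp in replicate 4. Replicate 3 listed a further region, 343 bp upstream, with a value of 22.1 (q-value 0.22).

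eIF1, a small factor that enforces accurate choice of the start codon, was next in this group. Its highest region (3L 3222829 to 3223218) had a value of 115 in replicate 3, 104 in replicate 4 and 215 in the pooled list. The pooled summit was 317 bp upstream of eIF1 but 64 bp upstream of RpL28, a large subunit ribosomal protein gene that runs in the opposite direction. A further pooled region closer to eIF1, 115 bp upstream, had a value of 74.1 (q-value 0.015), and replicate 3 listed its counterpart 70 bp upstream with a value of 43.1 (q-value 0.0064). Replicate 4 listed no such region.

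Of the remaining 3 genes in this group, eIF5B, the GTPase that joins the ribosomal subunits, stood lowest among the 12 with a pooled q-value of 0.05 or less. Its region in the 5' UTR had values of 30.3 in replicate 3 (q-value 0.022), 35.5 in replicate 4 (0.18) and 67.5 in the pooled list (0.040). eIF1A, which helps the small subunit scan, was listed in replicate 4 only (value 28.7, q-value 0.47), and eIF5, which promotes GTP hydrolysis by eIF2, in replicate 3 only (14.6, q-value 0.87).

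None of the 3 genes of the eIF2 complex had a thresholded peak (beside 5.35% of all genes with one). eIF2gamma, the GTP-binding subunit, had 14.1 in replicate 3 (q-value 0.93), 47.3 in replicate 4 (0.029) and 60.4 in the pooled list (0.081). For eIF2beta the order was the opposite, with 28.0 in replicate 3 (q-value 0.040) and 25.7 in replicate 4 (0.64), and 61.0 in the pooled list (0.076). Each was thus below a q-value of 0.05 in a different replicate. eIF2alpha, the subunit whose phosphorylation shuts initiation down, was listed in replicate 4 only (23.5, q-value 0.78).

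Among the 5 genes of eIF2B, the exchange factor that reloads eIF2 with GTP, eIF2Balpha alone had a region with a q-value of 0.05 or less. It was absent from the replicate 3 list, had 61.5 in replicate 4 (q-value 0.013) and 69.5 in the pooled list (0.030). The summit (3R 29935860 to 29936249) lay 167 bp upstream of eIF2Balpha and 77 bp inside Vps13B, which is transcribed the other way. eIF2Bdelta (45.7), eIF2Bepsilon (35.5) and eIF2Bgamma (20.7, in replicate 4 only) had regions with q-values of 0.44 or more in the list given, the first 2 values being pooled ones. eIF2Bbeta had none. The alternative initiator factors eIF2A and eIF2D were listed with q-values of 0.12 or more.

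The eIF3 complex, the largest initiation factor, had 16 genes, of which 8 had no region in any list (beside 60.7% of all genes). Of the 16 genes, 1 had a thresholded peak (beside 5.35% of all genes), namely eIF3c, which encodes a core subunit. The peak of eIF3c (2R 17665443 to 17665832) had 58.0 in replicate 3, 48.0 in replicate 4 and 108 in the pooled list. Its pooled summit was 40 bp upstream of the start site, and no other gene start lay within 500 bp. This was the member nearest above the threshold of 92.4. The nearest below was eIF3h, with 37.3 in replicate 3 (q-value 0.0082), 53.2 in replicate 4 (0.018) and 89.5 in the pooled list (0.0091). The q-value was 0.05 or less in both replicates for eIF3c and for eIF3h.

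The eIF3a gene, for the large scaffold subunit, had 26.5 in replicate 3 (q-value 0.068), 54.7 in replicate 4 (0.016) and 81.9 in the pooled list (0.011). eIF3m showed the reverse: 38.2 in replicate 3 (q-value 0.0086), no region in replicate 4 and 43.0 in the pooled list (0.55). Single low regions were listed at eIF3b (22.0), eIF3d1 (22.5) and eIF3f1 (22.8) in replicate 4 and at eIF3i (16.1) in replicate 3, all with q-values of 0.72 or more. The genes without any region were eIF3e, eIF3g1, eIF3j, eIF3k and eIF3l and the second copies eIF3d2, eIF3f2 and eIF3g2.

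Among the 13 genes for cap binding and mRNA unwinding, eIF4EHP stood apart in value. It was the single one with a thresholded peak (beside 5.35% of all genes). It encodes a cap-binding protein that does not support initiation and represses maternal mRNAs such as caudal in the early fly embryo. Its peak (3R 24108959 to 24109348) had 127 in replicate 3, 109 in replicate 4 and 238 in the pooled list, where it ranked 147. The summit lay 194 bp upstream of eIF4EHP and 182 bp upstream of the divergent gene CG18428.

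The genes of the active cap-binding complex had lower values. eIF4G2, a scaffold protein needed in the male germ line, had 32.8 in replicate 3 (q-value 0.015), 65.0 in replicate 4 (0.013) and 78.1 in the pooled list (0.013). These summits lay 77 bp upstream in replicate 3, and 130 bp downstream in replicate 4. The replicate 4 region nearest to that of replicate 3, 71 bp upstream, had 31.2 (q-value 0.34). The general scaffold gene eIF4G1 was listed in replicate 3 only (16.3, q-value 0.71), eIF4E1, the main cap-binding protein gene, also in replicate 3 only (20.2, q-value 0.34). The helicase gene eIF4A had 25.0 in replicate 3, 20.5 in replicate 4 and 40.2 in the pooled list (q-value 0.68), and eIF4H1, a helicase partner, 15.9, 35.1 and 47.8 (q-value 0.36). None of the further cap-binding paralogs eIF4E3, eIF4E4, eIF4E5, eIF4E6 and eIF4E7 had a region, nor did eIF4B and eIF4H2. Genes without a region were thus 7 of the 13 in this group, beside 60.7% of all genes.

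Of the 8 elongation factor genes, 2 had a thresholded peak (beside 5.35% of all genes). eEF1gamma, a structural subunit of the exchange complex that recharges eEF1alpha with GTP, had 93.8 in replicate 3, 151 in replicate 4 and 248 in the pooled list. Its summit (3R 29219991 to 29220380) lay in the 5' UTR, 14 bp downstream of the start site, in the pooled list, 12 bp downstream in replicate 3 and 14 bp upstream in replicate 4. It was the single one of the 6 thresholded factor genes with a pooled summit inside its own transcript leader.

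eEF1alpha1, the GTPase that delivers aminoacyl transfer RNAs, had 76.8 in replicate 3, 55.8 in replicate 4 and 133 in the pooled list (2R 11891870 to 11892259). The gene has 4 annotated start sites, and the summit stood 57 bp upstream of an internal one, within an intron of the longest transcripts. With the outermost start site alone it was not counted. eEF5, known elsewhere as eIF5A, which helps ribosomes through difficult peptide bonds, had 40.3 in replicate 3 (q-value 0.0070), 31.2 in replicate 4 (0.34) and 69.8 in the pooled list (0.029). The translocase gene eEF2 was listed in replicate 4 (41.4, q-value 0.069) and in the pooled list (41.9, q-value 0.60). The exchange subunit genes eEF1beta and eEF1delta, the second copy eEF1alpha2 and the selenocysteine factor gene eEFSec had no region. Genes without a region were thus 4 of the 8 elongation factor genes, beside 60.7% of all genes.

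**Figure D2:**
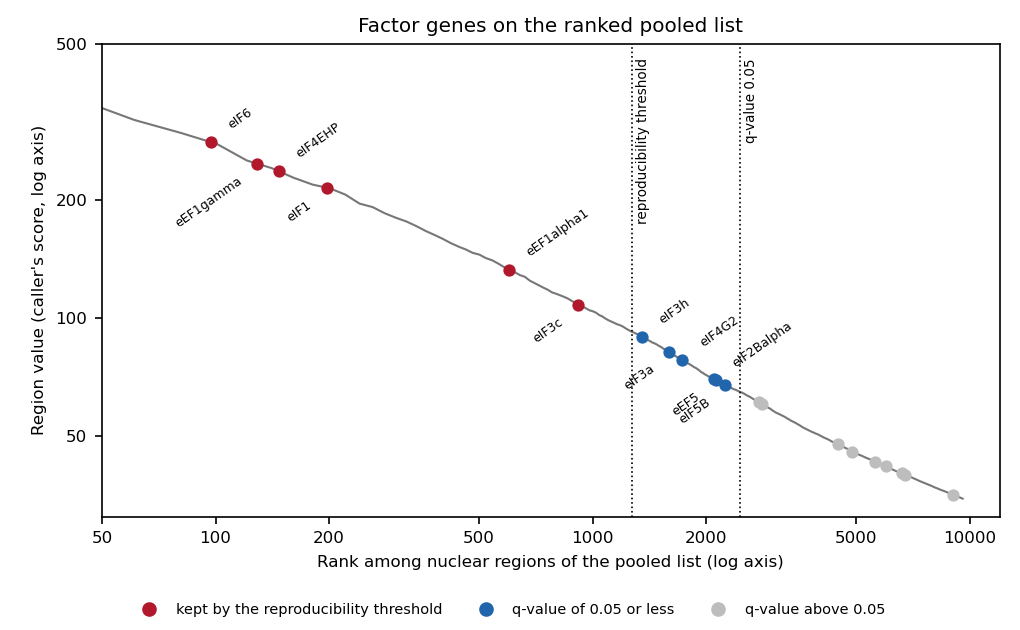
Value against rank for the nuclear regions of the pooled list from rank 50 on (grey line, both axes logarithmic), with the highest region at each of 21 factor genes as a point. Of these, 6 lie above the reproducibility threshold (left dotted line), 6 between it and a q-value of 0.05 (right dotted line) and 9 below both.

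Among the 6 thresholded factor genes, the same 4 had the highest values in all lists. The values of eIF6, eEF1gamma, eIF4EHP and eIF1 ran from 93.8 to 135 in replicate 3, from 104 to 151 in replicate 4 and from 215 to 281 in the pooled list. Those of eEF1alpha1 and eIF3c were 58.0 and 76.8 in replicate 3, 48.0 and 55.8 in replicate 4, and 108 and 133 in the pooled list. The median value was 227 over the 6 factor genes and 134 over the 746 protein-coding genes with a thresholded peak. Over genes with a pooled q-value of 0.05 or less, the medians were 99.0 for the 12 factor genes and 99.9 for all 1320.

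**Figure D3:**
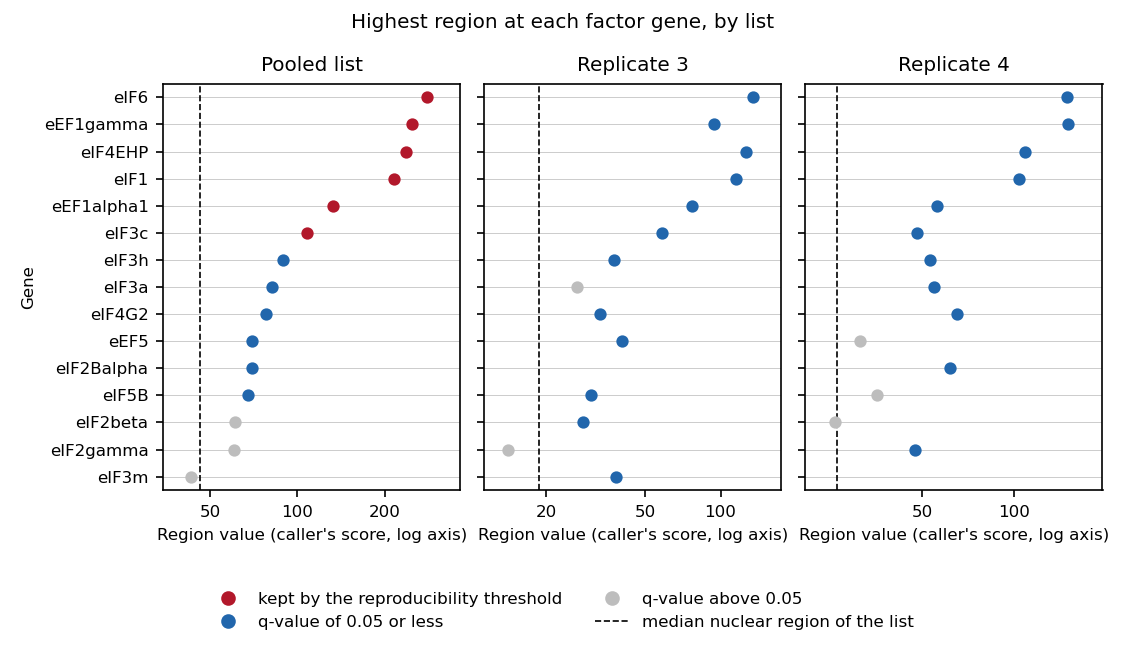
Value of the highest region (log axes, each list on its own scale) at the 15 factor genes that reached a q-value of 0.05 or less anywhere, ordered by pooled value. The dashed line marks the median nuclear region of each list (46.1 pooled, 18.7 in replicate 3, 26.2 in replicate 4), and eIF2Balpha has no region in replicate 3 and eIF3m none in replicate 4.

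The 2 replicates differed in where the highest summit stood and in its rank. Where both listed a region, the highest summits of replicates 3 and 4 were a median of 26 bp apart over 15 factor genes, with 12 within 100 bp (80.0%), and a median of 57 bp apart over 2615 protein-coding genes, with 64.0% within 100 bp. Limited to q-values up to 0.05 in both replicates, the median was 28 bp over 8 factor genes (87.5% within 100 bp) and 26 bp over 785 protein-coding genes (88.4%). At the 6 thresholded factor genes the distances were 5 bp for eIF6, 24 bp for eIF3c, 26 bp for eEF1gamma, 30 bp for eEF1alpha1, 33 bp for eIF4EHP and 67 bp for eIF1. The widest were 207 bp at eIF4G2, 296 bp at eIF4H1 and 834 bp at eIF4A, where the replicates had their highest region at different start sites. Factor genes had up to 4 start sites and all protein-coding genes up to 16, where such distances reached 99523 bp. For the nearest pair of summits the medians were 23 bp over the 15 factor genes and 43 bp over the 2615 protein-coding genes. In rank, eIF3a stood in the highest 7.65% of nuclear regions in replicate 4 and in the highest 25.2% in replicate 3. For eEF5 it was 30.0% in replicate 4 and 12.2% in replicate 3.

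Most factor gene summits lay upstream of the gene's nearest own start site. Over the 12 genes with a pooled q-value of 0.05 or less, 9 summits lay upstream and 3 downstream, and 11 lay within 200 bp (91.7%). Over all 1320 protein-coding genes with such a region, 86.2% lay upstream and 64.5% within 200 bp. The median position was -55.5 bp for the factor genes and -139.5 bp for all. Upstream of an internal start site can still be inside the gene, as in the intron of eEF1alpha1 and the 5' UTR of eIF5B. For eIF5B the pooled summit lay 182 bp upstream of an internal start site. The replicate summits lay 182 bp (replicate 3) and 161 bp (replicate 4) downstream of its outermost one.

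Some regions lay near the start of a second gene. A start site of another protein-coding gene lay within 500 bp of the summit at 6 of these 12 factor genes (50%, beside 53.9% of all such genes; 2 of the 6 with a thresholded peak, beside 52.0%), and was the nearer one at 4 of the 12 (33.3%, beside 25.9%). These 4 were eIF1, with RpL28, eIF4EHP, with CG18428, eIF3a, with CG1074 (54 bp from eIF3a and 16 bp from CG1074), and eIF2Balpha, with Vps13B. The peak of eIF3h stood 61 bp inside the gene and 124 bp upstream of senju. eIF4G2 shares its start site with CG33111. Outside these 12, eIF2gamma shares one with Su(var)3-9, which encodes a histone methyltransferase. The lists cannot assign a shared region to either gene. When each summit was counted for the nearest protein-coding start only, 4 of the 6 thresholded factor genes were left, without eIF1 and eIF4EHP (7.69% of the factor genes, beside 4.02% of all genes).

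**Figure D4:**
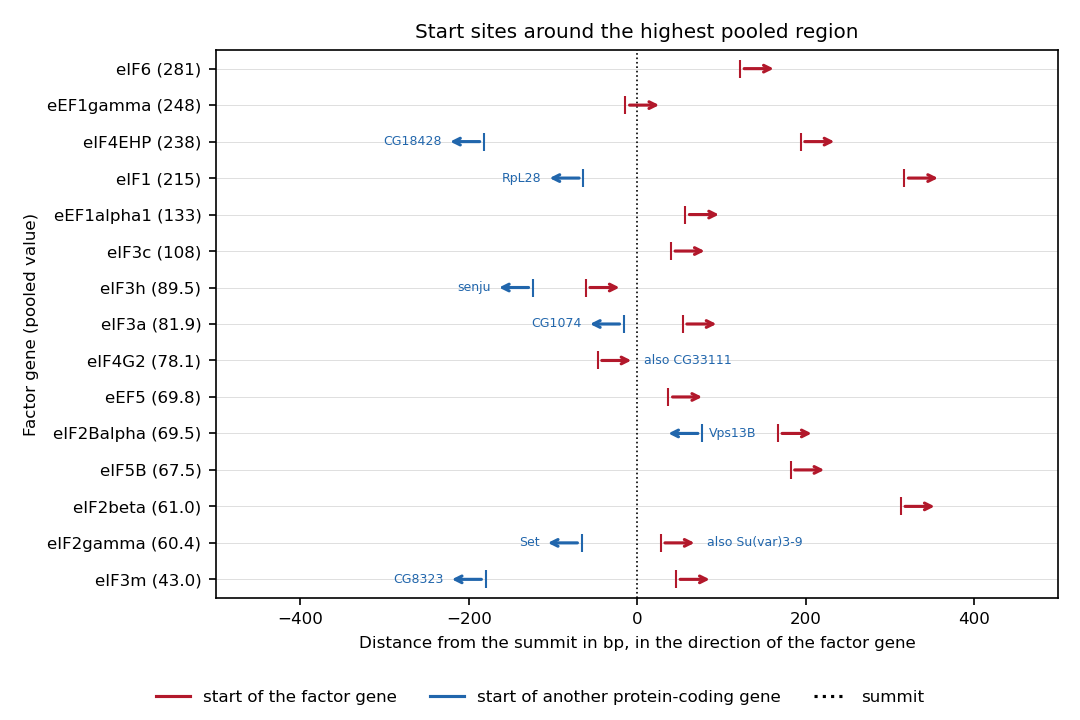
Start sites (bars, with arrows in the direction of transcription) around the summit of the highest pooled region (dotted line at 0 bp) for 15 factor genes, each drawn in its own direction and listed with its pooled value. Factor gene starts are red and other protein-coding starts within 500 bp are blue, with a start shared by both written as "also".

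Sequences under these regions are shown for 3 thresholded factor genes and for 2 weaker ones with a short stretch between divergent genes. They were picked by their sequence and do not stand for the other factor genes. The aim was to set a region rich in A+T beside regions with the DNA replication-related element. This element (DRE, TATCGATA, which reads the same on both strands) is bound by the factor Dref at many fly promoters. All sequences come from the RefSeq genome (Release 6, dm6 coordinates) and read 5' to 3' on the strand of the factor gene. Capitals mark a full DRE or, for eIF4EHP, TATAAA on either strand.

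eEF1gamma, the 150 bases before the start site (chr3R:29220022-29220171, plus strand): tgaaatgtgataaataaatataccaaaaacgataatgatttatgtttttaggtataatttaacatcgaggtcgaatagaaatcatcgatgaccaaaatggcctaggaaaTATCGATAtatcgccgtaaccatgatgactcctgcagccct
eIF1, 121 bases around the pooled summit (chr3L:3222964-3223084, plus strand): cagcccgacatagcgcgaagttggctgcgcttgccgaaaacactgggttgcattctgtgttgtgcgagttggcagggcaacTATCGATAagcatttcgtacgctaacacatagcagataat
eIF4EHP, 121 bases around the pooled summit (chr3R:24109094-24109214, minus strand): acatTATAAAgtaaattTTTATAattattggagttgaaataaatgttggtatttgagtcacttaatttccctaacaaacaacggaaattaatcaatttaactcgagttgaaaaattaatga
eIF3a, the 69 bases up to the start of CG1074 (chr3R:4433896-4433964, minus strand): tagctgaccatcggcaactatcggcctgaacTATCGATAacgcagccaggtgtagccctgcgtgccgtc
eIF2gamma, the 93 bases up to the start of Set (chr3R:15263459-15263551, minus strand): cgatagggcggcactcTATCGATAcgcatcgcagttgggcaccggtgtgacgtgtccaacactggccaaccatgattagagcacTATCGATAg

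The DRE of eEF1gamma was 52 bp from the pooled summit, counted from the fourth base of the element. That of eIF1, on the RpL28 side of the shared stretch, was 24 bp away, that of eIF3a 20 bp, and the pair shown for eIF2gamma 23 and 45 bp. The stretch shown for eIF4EHP held no DRE and was 76.9% A+T. The stretches with a DRE were 66.0% A+T for eEF1gamma, 49.6% for eIF1, 45.2% for eIF2gamma and 42.0% for eIF3a. These stretches differ in length and place, and that of eEF1gamma ends before its pooled summit. Within 100 bp of the pooled summit, A+T was 54.7% for eEF1gamma, 59.2% for eIF1, 53.2% for eIF2gamma and 51.7% for eIF3a. For eIF4EHP it was 77.6%. Of the thresholded genes not shown, eEF1alpha1 had 52.7% there, eIF6 57.2% and eIF3c 65.2%. None of these had a DRE within 100 bp of the pooled summit.

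In promoters from 250 bases before to 50 bases after the outermost start site, 14 of the 52 factor genes had a DRE (26.9%), beside 9.36% of all 13945 protein-coding promoters. A DRE was found at 3 of the 6 thresholded factor genes (eEF1gamma, eIF3c and eIF6), where it was 52 bp from the pooled summit for eEF1gamma, 115 bp for eIF6 and 177 bp for eIF3c. It was found at 1 of the 6 further genes with a pooled q-value up to 0.05, at 1 of the 3 with such a q-value in a single replicate only, at 4 of the 17 listed with higher q-values, and at 5 of the 20 without any region (eEF1delta, eIF2Bbeta, eIF3l, eIF4B and eIF4E6). Other motifs searched on both strands were GGTCACAC, the core of Motif 1 (6 factor genes, 11.5%, beside 7.70% of all promoters), CAGCTG, an E-box (4, 7.69% beside 17.7%), GAGAG, the GAGA element (8, 15.4% beside 29.7%), and TATAAA (23, 44.2% beside 45.8%). The TCT initiator, known from fly ribosomal protein and translation genes, was searched as TCTTTT, in which the first and the last base could each also be C, on the strand of the gene within 10 bases of the start site. It was found at eEF1delta, eIF3f1, eIF3i and eIF4A (7.69% beside 1.97% of all promoters), and at none of the 6 genes with a thresholded peak. A match is a run of letters and not a shown binding site.

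Within 100 bp of the summit, a DRE was found at 3 of the 12 factor genes with a pooled q-value of 0.05 or less (beside 6.74% of the 1320 protein-coding genes with such a region). The Motif 1 core was found at 1 of the 12 (beside 4.39%), the GAGA element at 1 (beside 21.4%), TATAAA at 3 (beside 38.0%) and the E-box at none (beside 11.4%). With 12 genes, each of these counts rests on 3 genes or fewer. The sequence within 100 bp of the summit was 58.2% A+T at the median over the 6 thresholded factor genes, with a range from 52.7% for eEF1alpha1 to 77.6% for eIF4EHP. Over the 575 thresholded peaks near any protein-coding start the median was 65.2%. Mappability and read coverage under these peaks were not tested.

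Several thresholded peaks lay beside factor genes but outside the 500 bp window. The highest nuclear peak of the whole list (value 837) stood 676 bp upstream of eIF2Bbeta, and 43 bp from the start site of Ugalt, a Golgi sugar transporter gene. A peak of 124 lay in an intron of eIF5B (3L 3432674 to 3433063), 27734 bp from its nearest start site. A peak of 145 lay 1238 bp upstream of the outermost start site of eEF1alpha1, in an intron of ERp60, a peak of 113 lay 1314 bp upstream of eIF3d1 and 170 bp upstream of GILT2, and a peak of 135 past the end of eIF2beta lay near ver and Gcn5. With a window of 1000 bp, eIF2Bbeta was added and 7 of the 52 factor genes were counted (13.5%, beside 6.46% of all genes).

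Genes that act beside the factors were counted in the same way from a list of 31 symbols, of which 27 were found under that symbol in the annotation. Gcn2, the kinase that phosphorylates eIF2alpha when amino acids are short, was the single one with a thresholded peak, with 42.7 in replicate 3, 60.8 in replicate 4 and 106 in the pooled list. Its summit lay 265 bp upstream, and 91 bp from the start site of Ugt35D1. Thor, the eIF4E-binding repressor, had 32.4 in replicate 3 (q-value 0.015), 49.1 in replicate 4 (0.021) and 77.0 in the pooled list (0.014). Rheb, the GTPase that activates TOR signalling, had 38.7 in replicate 3 (q-value 0.0082), 45.8 in replicate 4 (0.040) and 85.4 in the pooled list (0.0096).

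The release factor genes eRF1 and eRF3 had a q-value of 0.05 or less in replicate 3 only. The poly(A)-binding protein gene pAbp and the growth signalling gene Lk6 had one in replicate 4 only. Lk6 had 55.3 in replicate 4 (q-value 0.016), no region in replicate 3 and 63.1 in the pooled list (0.060). Of the 9 mitochondrial translation factor genes found, 8 had no region in any list (88.9%, beside 60.7% of all genes), and mEFTu2 had 33.7 in replicate 3 alone (q-value 0.013). In all, 1 of the 27 related genes had a thresholded peak, beside the 5.35% of all genes given above, and 13 had no region (48.1%, beside the 60.7%).

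Thresholded peaks stood at 6 of the 52 factor genes, against 46 of the 92 cytosolic ribosomal protein genes (50%, interval 40 to 60). Regions of any kind in the pooled list stood at 21 of the 52 factor genes, against 73 of the 92 ribosomal protein genes (79.3%). The regions between eIF1 and RpL28, 1 of them thresholded and 2 in the pooled list, count for both sets, and the difference between the sets was not tested.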

How the data were processed

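ChIP-seq peak lists of 2 samples (replicates 3 and 4 of 1 group) were used. Per the deposited file descriptions, the authors called regions on each replicate and on both replicates together, each with a control alignment, and derived the thresholded list from these 3 lists with a limit on the irreproducible discovery rate. Fragments were 200 to 800 bp, per the labels. The sources used here do not give the aligner and the peak caller. The deposited score of each region (its value) and the deposited −log10 of its q-value were used as they are, and no depth can be derived. Lists on the older dm3 build were not used.

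Start sites of all transcripts came from Ensembl 115 (BDGP6.54, dm6 coordinates), without transposable elements. Positions were counted from 1. All region ends lay within the chromosome lengths of the RefSeq FASTA (Release 6). Counts, medians, Wilson intervals (95%) and motif searches were made in Python 3.11.15 with SciPy 1.17.1. There is 1 group, so no test between samples was possible, and the results are descriptions. The assignment of summits to genes was tested on simulated summits. The genes, lists and alternatives were chosen with earlier results of these data known. Every factor gene is named, those with a thresholded peak or a q-value of 0.05 or less with their values.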

Additional observations from a re-analysis of the deposited data

How the results depend on the processing

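The count of 6 factor genes with a thresholded peak was 5 with a window of 200 bp (beside 3.49% of all genes), 7 with 1000 bp (6.46%), 4 with the nearest protein-coding start site only (4.02%), 5 with the outermost start site only (4.39%) and 5 among the 645 thresholded peaks of highest value (2.92%). With the 1290 highest regions of 1 replicate in place of the thresholded list, it was 9 without replicate 3 (5 of them shared with the 6 reported) and 6 without replicate 4 (all 6 shared), beside 5.13% and 5.53% of all genes. Limited to a q-value of 0.05 or less, the counts of 21 (pooled), 21 (replicate 3), 26 (replicate 4) and 15 (both replicates) fell to 12, 12, 11 and 8, because fewer regions were counted. The median thresholded value of 227 was 238 with either window, with the outermost start site or over those 645 peaks, 190 with the nearest start site only, and 65.0 and 105 on the scales of replicates 4 and 3 when the other replicate was left out. The median position of -89.5 bp was -48.5 bp with the nearest start site only, -122 bp with the outermost start site or over those 645 peaks, and -105.5 to -54 bp with 1 replicate left out. The median distance between replicate summits of 26 bp was 23 bp for the nearest pair (beside 57 and 43 bp over all protein-coding genes). For the related genes, the count of 1 was 0 with a window of 200 bp, with the nearest start site only and over those 645 peaks, 2 with a window of 1000 bp, and 0 to 2 with 1 replicate left out. Counting summits without the step to positions from 1, an alternative chosen after seeing the data, changed no count. No paired analysis was possible because there is 1 group. The unknown depth limits what a missing region shows.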
